A study of Mus musculus with 2 samples.

Results

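Endothelial cells (ECs) that line sinusoids, the wide and leaky capillaries of bone marrow, liver and spleen, remove waste macromolecules from the blood. They do so with endocytic scavenger receptors, which bind their cargo at the cell surface, carry it inside in clathrin-coated vesicles and deliver it to lysosomes. The receptors are best known from liver sinusoids, where they clear modified lipoproteins, matrix fragments, glycoproteins and small immune complexes.

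The expression of 7 genes grouped here as sinusoidal scavenger receptors was examined in single cells of mouse long bone, out of 28380 genes measured. The genes were Stab1 (stabilin-1, a receptor for modified lipoproteins and for the matrix protein SPARC), Stab2 (stabilin-2, the main clearance receptor for hyaluronan), Mrc1 (the mannose receptor CD206, which takes up glycoproteins and collagen fragments), Lyve1 (a hyaluronan receptor of lymphatic endothelium), Fcgr2b (the inhibitory Fc gamma receptor, which binds IgG immune complexes), Scarb1 (SR-B1, the receptor for high-density lipoprotein, HDL) and Scarf1 (a receptor for modified lipoproteins and apoptotic cells). All 7 had rows in both tables.

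The data comprised 2 libraries of cells from femur and tibia of C57BL/6 mice at postnatal day 30, with male and female animals pooled and the epiphysis removed. The Control library came from mice that carried the conditional Dach1 overexpression allele and no Cre (genotype Dach1OE +/f), and the Dach1OE library from mice that carried the same allele with a tamoxifen-inducible Cre driven by the apelin receptor promoter (Apj CreERT2 - Dach1OE +/f). The apelin receptor marks capillary ECs of bone, so Cre acts in part of the endothelium, and tamoxifen was given to both genotypes. Cells were digested with collagenase and depleted of haematopoietic cells with antibodies against lineage markers, CD45 and CD117, so the blood cells described here are those that escaped depletion. Each genotype is represented by 1 library of pooled mice, so no difference between genotypes could be tested, and every interval given is a 95% interval of counting error alone. The comparison of the libraries asks how Dach1, a transcription factor of arterial and coronary endothelium, affects the vessel types of bone, here read through the clearance receptors.

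The libraries held 28720 and 32028 cells with 143986818 and 166999989 unique molecular identifiers (UMIs, each standing for 1 captured transcript molecule), and 26466 and 29317 cells had 500 to 6000 genes and under 25% mitochondrial UMIs. ECs numbered 9092 in Control and 9357 in Dach1OE, with a median of 2774 and 2790 UMIs per cell. They were assigned to subtypes by marker genes that included none of the 7 receptors. Sinusoidal ECs numbered 3628 in Control and 715 in Dach1OE, metaphyseal ECs 1204 and 1407, arterial ECs 387 and 1107, remodelling (type R) ECs 189 and 148, proliferating ECs 459 and 642, lymphatic ECs 86 and 35, and ECs positive for Scgb3a1 44 and 2035. The remaining 3095 and 3268 ECs, 34.0% and 34.9%, met no subtype's criteria and were kept as unassigned. ECs positive for Scgb3a1 are here those with both Scgb3a1 and Clca3a1 detected and their best score for this pair. ECs of other gates can also carry Scgb3a1 UMIs. Dach1 itself was measured at 4.94 CPM (the UMIs of a gene scaled to a fixed total over the same cells, the usual CPM unit) in Control ECs and 195 CPM in Dach1OE ECs, in the direction of the labels. Both libraries' tables shared 1049 cell indices.

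The upstream sequences of Stab1, Stab2 and Mrc1, the receptors highest in sinusoidal ECs of both libraries among gates of at least 50 cells, are shown so that their start regions can be compared. Sequences are from RefSeq (GRCm38.p6), and the promoter set used here held 4 of the 7 genes. Absence from this set is not absence from RefSeq. The window of Fcgr2b lies inside the annotated gene and is not printed. Each sequence is printed 5′ to 3′ on the gene's strand up to the first annotated transcript start. Capitals mark TGACAG or its reverse complement CTGTCA, the letters bound by the Meis family of homeodomain factors, 1 of which (Meis2) is among the transcription factors described below. The stretches cover chr14:31168652-31168891 (minus strand, 240 bases) for Stab1, chr10:87008039-87008192 (minus strand, 154 bases) for Stab2 and chr2:14229164-14229391 (plus strand, 228 bases) for Mrc1.
Stab1: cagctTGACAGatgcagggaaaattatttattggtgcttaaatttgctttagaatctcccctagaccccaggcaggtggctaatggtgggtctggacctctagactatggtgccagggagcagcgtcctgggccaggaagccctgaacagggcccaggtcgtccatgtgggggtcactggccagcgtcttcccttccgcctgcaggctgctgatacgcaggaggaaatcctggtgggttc
Stab2: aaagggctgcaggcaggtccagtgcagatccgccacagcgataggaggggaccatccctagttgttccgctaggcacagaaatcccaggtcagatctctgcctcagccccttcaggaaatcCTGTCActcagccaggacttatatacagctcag
Mrc1: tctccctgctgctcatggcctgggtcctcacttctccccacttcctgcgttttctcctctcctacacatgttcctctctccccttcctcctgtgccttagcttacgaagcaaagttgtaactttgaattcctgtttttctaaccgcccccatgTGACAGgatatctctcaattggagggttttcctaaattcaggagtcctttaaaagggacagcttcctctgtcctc
Each of the 3 held the motif once, a motif found on either strand of the 250 upstream bases in 15.9% of 32851 promoters, and it was absent from that of Fcgr2b. It was chosen for marking after the matches were seen, among 8 motifs searched on both strands. None of the 4 promoters held the TATA box letters TATAAA (in 12.4% of promoters), the GATA letters AGATAA (9.99%) or the CACGTG E-box (6.02%). The half-site AGGTCA (14.0%) occurred once each for Stab2 and Fcgr2b, TGCTGA of the Maf factors (16.1%) once for Stab1, ACAAT of the Sox factors (27.7%) once for Fcgr2b, and the ETS core GGAA (93.4%) 4 to 6 times in each. These are matches of letters and not binding sites.

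All 7 are protein-coding genes on different chromosomes. In GRCm38 coordinates Stab1 (ENSMUSG00000042286) spans chr14:31139013-31168641, Stab2 (ENSMUSG00000035459) chr10:86841198-87008025, Mrc1 (ENSMUSG00000026712) chr2:14229392-14332057 and Lyve1 (ENSMUSG00000030787) chr7:110850607-110863239. Fcgr2b (ENSMUSG00000026656) spans chr1:170958617-170976547, Scarb1 (ENSMUSG00000037936) chr5:125277087-125341094 and Scarf1 (ENSMUSG00000038188) chr11:75513540-75526582. Mrc1 and Scarf1 lie on the plus strand and the other 5 on the minus strand. Fcgr2b resembles other Fc gamma receptor genes, so reads shared with Fcgr3 or Fcgr4 could have been assigned to either.

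Stab1, Stab2, Mrc1, Scarf1 and Lyve1 were largely endothelial and Fcgr2b and Scarb1 were not. ECs held 22.4% of all UMIs in Control and 19.6% in Dach1OE. Against this, ECs held 86.6% and 84.1% of Stab1 UMIs, 84.2% and 81.4% of Stab2, 86.9% and 83.8% of Mrc1, 84.8% and 82.6% of Scarf1, and 70.1% and 68.3% of Lyve1. ECs held only 37.8% and 15.7% of Fcgr2b UMIs and 35.2% and 32.6% of Scarb1 UMIs, so most transcripts of the Fc receptor and of the HDL receptor lay in other cells.

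**Figure D1:**
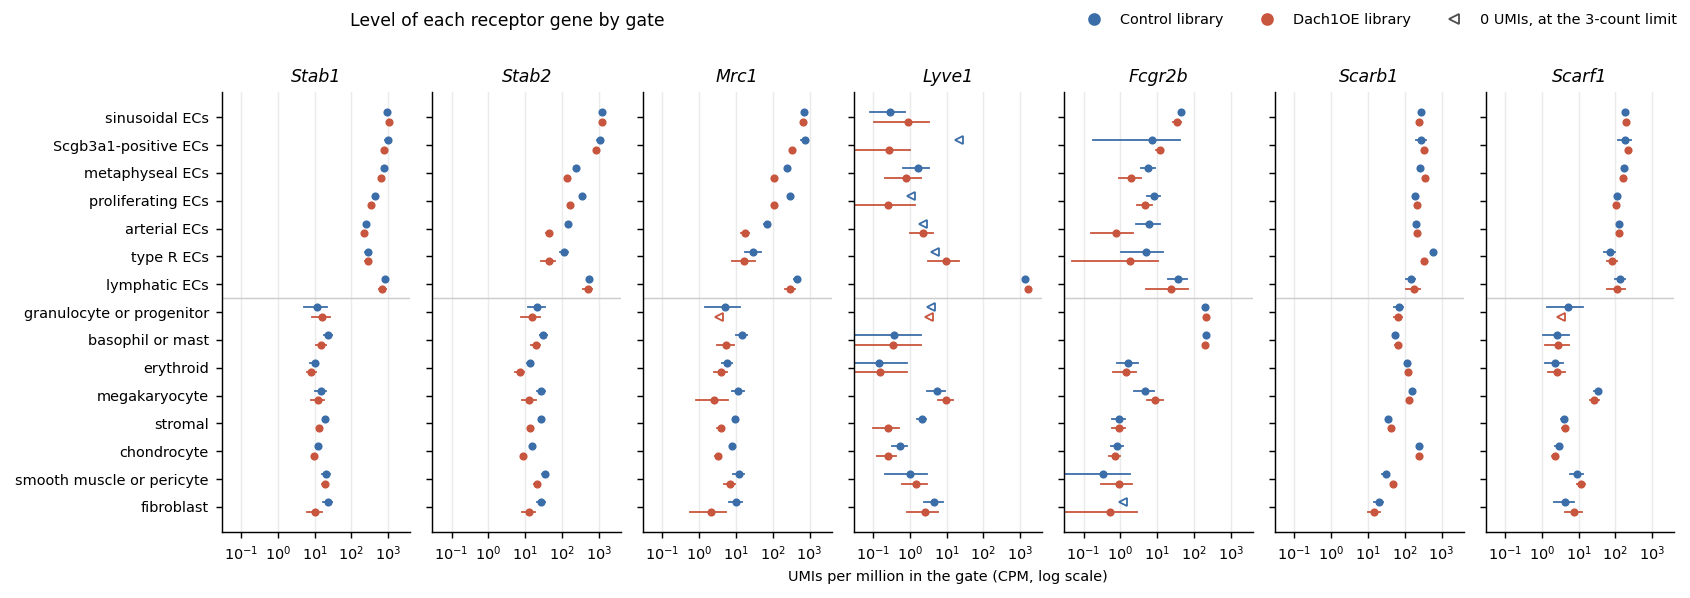
Level of each of the 7 receptor genes (CPM in the gate, log axis) in endothelial subtypes, above the grey line, and in other cell types, below it, for the Control and the Dach1OE library. Bars are 95% counting intervals, and Stab2 reaches 1208 CPM in sinusoidal ECs of both libraries, above every other gate.

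Among gates of at least 50 cells, both stabilins and the mannose receptor were highest in sinusoidal ECs in both libraries. The 44 Scgb3a1-positive ECs of Control had 982 CPM of Stab1, 1062 CPM of Stab2 and 735 CPM of Mrc1, with intervals that overlapped the sinusoidal ones. Stab2 stood at 1208 CPM (1190 to 1227) in sinusoidal ECs of Control, 5.02-fold its level in metaphyseal ECs, 8.35-fold that in arterial ECs and 10.5-fold that in type R ECs. In Dach1OE the corresponding folds were 8.97, 27.8 and 28.0. Over gates of at least 50 cells, the order of levels in Control ran from sinusoidal through lymphatic (553 CPM), proliferating (358 CPM) and metaphyseal (241 CPM) to arterial (145 CPM) and type R ECs (115 CPM), and of these neighbours only the last pair had overlapping intervals. Mrc1 followed the same order, from 729 CPM in sinusoidal to 30.0 CPM in type R ECs of Control, a 24.3-fold span that rests on 18 UMIs in the type R cells. By whole profile, 40.7% of the lymphatic gate of Control were nearest to sinusoidal ECs and 54.7% to lymphatic ECs. The part of the former in the lymphatic levels given here and below was not tested.

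Stab1 was the least graded of the 3. Its Control level was 945 CPM in sinusoidal, 841 CPM in lymphatic and 766 CPM in metaphyseal ECs, where the intervals of each neighbouring pair overlapped, and 275 CPM in type R and 246 CPM in arterial ECs, which also overlapped. In Dach1OE the sinusoidal level of 1077 CPM lay apart from the next, 772 CPM in Scgb3a1-positive ECs.

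Fcgr2b was low in endothelium and graded towards sinusoids. Its level was 45.1 CPM in sinusoidal ECs of Control against at most 8.09 CPM in type R, metaphyseal, arterial and proliferating ECs, whose intervals overlapped. Lymphatic ECs had 36.8 CPM on 12 UMIs, an interval that overlapped the sinusoidal one. Fcgr2b was far higher in the blood cells left after depletion, at 216 and 204 CPM in basophils or mast cells and 203 and 212 CPM in granulocytes or progenitors of Control and Dach1OE. The activating receptor Fcgr3 was measured at 552 and 530 CPM in the same basophils or mast cells.

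Scarb1 and Scarf1 did not mark sinusoids. Scarb1 was highest in type R ECs of Control, at 574 CPM, apart from 270 CPM in sinusoidal and 257 CPM in metaphyseal ECs. Chondrocytes had 242 and 244 CPM of Scarb1, megakaryocytes 157 and 129 CPM and erythroid cells 118 and 122 CPM. Scarf1 was spread over the endothelium, from 70.0 CPM in type R to 187 CPM in sinusoidal ECs of Control, with the sinusoidal and metaphyseal (173 CPM) intervals overlapping. In megakaryocytes Scarf1 was at 33.1 and 26.9 CPM, and in stromal cells at 4.08 and 4.31 CPM.

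Lyve1 was a lymphatic gene in this bone. Lymphatic ECs, which made up under 1% of ECs in both libraries, held 74.7% and 75.2% of the endothelial Lyve1 UMIs, at 1345 CPM in Control and 1666 CPM in Dach1OE. Sinusoidal ECs held 4 and 2 Lyve1 UMIs, or 0.299 and 0.904 CPM. Stromal cells had 2.12 and 0.253 CPM, above the sinusoidal level in Control and, with overlapping intervals, below it in Dach1OE.

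Sinusoidal ECs were then set against all other ECs of the same library, with lymphatic ECs left out. In Control, 3 of the 7 genes were more than 1.5-fold higher in sinusoidal ECs, beside 7.2% of the 14297 genes with at least 20 UMIs. Stab2 was 2.33-fold higher (1208 against 519 CPM, log2 ratio 1.22, interval 1.18 to 1.26), Mrc1 1.98-fold (729 against 367 CPM) and Fcgr2b 3.36-fold (45.1 against 13.4 CPM, log2 ratio 1.75, interval 1.53 to 1.97). In Dach1OE, 4 of the 7 passed, beside 9.93% of 14268 genes: Stab1 (1.81-fold), Stab2 (3.02-fold), Mrc1 (672 against 186 CPM) and Fcgr2b (5.28-fold). With ECs named by whole profile the Control log2 ratios were 2.44 for Stab2, 1.83 for Mrc1 and 3.01 for Fcgr2b. The other ECs hold the unassigned cells, of which 60.5% in Control and 37.2% in Dach1OE were nearest to sinusoidal ECs. The receptors named for sinusoids thus split into 4 that were past 1.5-fold higher there in at least 1 library and 3 that were not. Scarb1 had log2 ratios of 0.05 and -0.30. Scarf1 had 0.25 (0.17 to 0.33) and 0.20 (0.05 to 0.34), higher beyond counting error but short of the fold. Lyve1 was lower, at -4.77 in Control and, on 2 against 67 UMIs, -1.33 in Dach1OE with an interval reaching 0.58. Of the Lyve1 UMIs in the other ECs, 137 of 144 in Control and 46 of 67 in Dach1OE lay in unassigned ECs. By whole profile 39 and 20 of the unassigned ECs were nearest to lymphatic ECs. With equal weight of EC subtypes the Control ratio of Lyve1 was -0.15. The part of lymphatic-like cells in the Lyve1 ratios was not tested.

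The number of receptors detected per cell was counted next. With each cell thinned to 1000 UMIs, the mean number of the 7 genes detected was 2.22 in sinusoidal ECs of Control (SD over cells 1.07, n = 3594 cells) and 2.29 in Dach1OE (SD 1.08, n = 699 cells). It was 1.28 and 1.10 in metaphyseal, 0.780 and 0.689 in type R and 0.610 and 0.551 in arterial ECs. Both stabilins were detected together in 43.4% and 44.9% of sinusoidal ECs, 10.3% and 7.07% of metaphyseal and 4.75% and 0.836% of arterial ECs. Single-gene shares in sinusoidal ECs were 62.4% and 63.5% for Stab1 and 67.8% and 69.5% for Stab2. Whether the 2 were detected together beyond what these shares give was not tested. None of the 7 was detected in 4.90% and 4.29% of sinusoidal ECs, against 55.7% and 56.0% of arterial ECs and 91.5% and 92.5% of stromal cells, which should lack most of these genes.

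**Figure D2:**
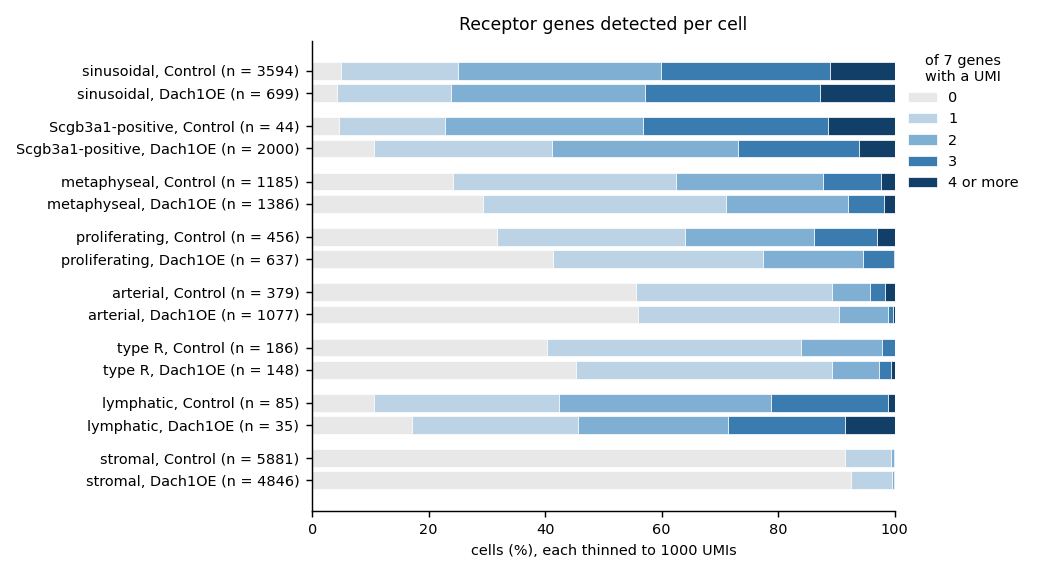
Share of cells (%, x axis) with 0 to 4 or more of the 7 receptor genes detected, by gate and library, each cell thinned to 1000 UMIs. Sinusoidal ECs of both libraries have a mean of 2.22 and 2.29 genes per cell and stromal cells 0.0911 and 0.0801.

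The share of cells with a UMI, from which the mean number of genes per cell follows, was also read gene by gene. After thinning, Stab2 was detected in 67.8% of sinusoidal ECs of Control (66.3 to 69.4, exact binomial) and 69.5% in Dach1OE (66.0 to 72.9), and without thinning in 93.5% and 90.9%. In stromal cells, thinned, the share was 2.72% and 1.71%. Mrc1 was detected in 49.8% and 48.9% of sinusoidal ECs, and Fcgr2b in 3.12% and 2.72%, against 19.2% and 18.4% of basophils or mast cells. Lyve1 was detected in 36.5% and 28.6% of lymphatic ECs after thinning. By whole profile 54.7% and 54.3% of this gate were nearest to lymphatic ECs and 40.7% and 25.7% to sinusoidal ECs.

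The comparison of libraries over all ECs showed 4 receptors lower in Dach1OE and none higher. Of the 7 genes, 4 were past 1.5-fold lower, beside 9.26% of the 16057 genes measured. Past it higher were 0 of 7, beside 8.99%, while the median log2 ratio over all genes was 0.03. The receptors were chosen with earlier results of these data known, so counts and shares are set side by side as description only. The count of lower receptors also depended on the weighting of EC subtypes, as given further on. Mrc1 stood at 522 CPM in Control and 221 CPM in Dach1OE, 2.37-fold lower (log2 ratio -1.24, interval -1.28 to -1.20). Stab2 went from 813 to 456 CPM, 1.78-fold lower (-0.83, -0.86 to -0.80). These 2 endocytic receptors for glycoproteins and hyaluronan thus differed far beyond counting error.

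Fcgr2b was 3.19-fold lower, at 27.1 and 8.50 CPM on 851 and 271 UMIs, and Lyve1 2.14-fold lower, at 18.7 and 8.72 CPM on 586 and 278 UMIs. Stab1 was at 811 and 630 CPM (-0.36, -0.39 to -0.34), Scarb1 at 263 and 300 CPM (0.19, 0.15 to 0.23) and Scarf1 at 170 and 174 CPM (0.03, -0.02 to 0.09), none of them past the fold. Lymphatic ECs, which hold most Lyve1 UMIs, numbered 86 and 35, and their part in the lower level was not tested; in cells with Y-linked UMIs they numbered 16 and 10 while Lyve1 was higher in Dach1OE (0.56).

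In sinusoidal ECs 0 of 6 receptors with at least 20 UMIs were past 1.5-fold, beside 7.07% of 12511 genes higher and 7.4% lower. With 6 genes, a count of 0 lies near these shares. Dach1 was at 3.07 and 59.7 CPM in sinusoidal ECs, below the 195 CPM over all ECs of Dach1OE. Stab2 was at 1208 CPM in both libraries, with the log2 ratio between -0.06 and 0.06. Stab1 was at 945 and 1077 CPM (0.19, 0.12 to 0.25), Mrc1 at 729 and 672 CPM (-0.12, -0.20 to -0.04) and Fcgr2b at 45.1 and 34.4 CPM (-0.39, -0.76 to -0.05). The intervals of Scarb1 (-0.13) and Scarf1 (0.08) reached 0. Sinusoidal ECs made up 39.9% of ECs in Control and 7.64% in Dach1OE, and 62.7% and 39.5% when each EC was named by its whole expression profile. The gate took cells that scored best for sinusoidal markers, so ECs low in those markers, or with a higher score for another subtype, lay outside it. In Dach1OE, 1726 ECs of the Scgb3a1-positive gate and 664 of the sinusoidal gate were nearest to sinusoidal ECs by whole profile. How far this gating kept the Stab2 levels alike was not tested. By whole profile the log2 ratios were -0.18 for Stab2, -0.62 for Mrc1 and -1.02 for Fcgr2b, the last 2 past the fold. Levels with the shares of the EC gates held fixed are given further on.

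**Figure D3:**
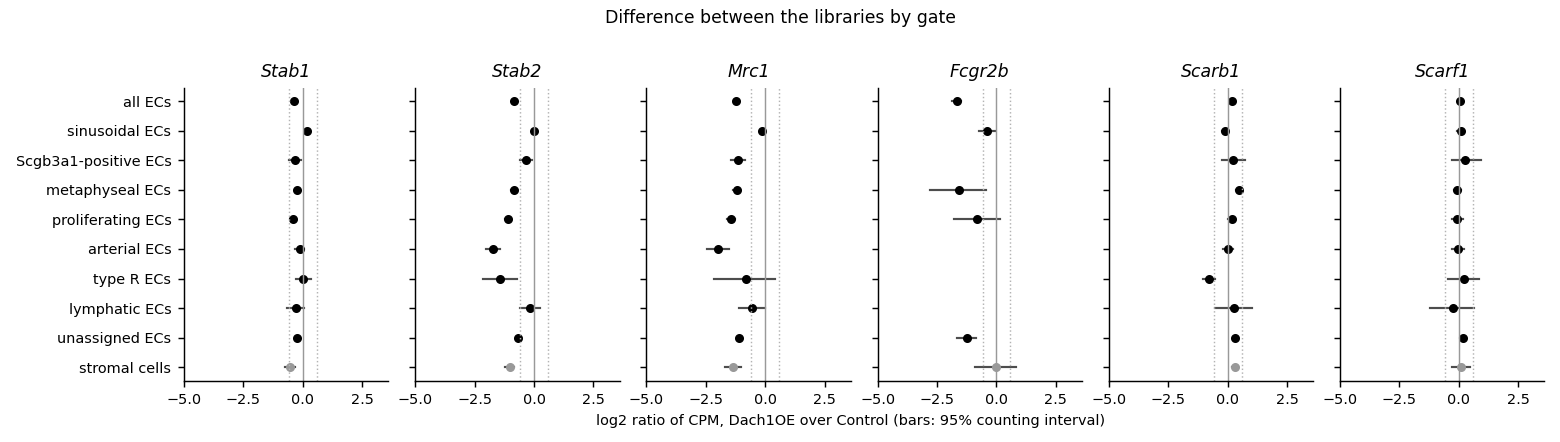
Log2 ratio of CPM, Dach1OE over Control, for the receptor genes other than Lyve1 by gate, with 95% counting intervals. Dotted lines mark 1.5-fold, and gates with few UMIs are left out. Stab2 lies at 0 in sinusoidal ECs and at -0.84 and -1.74 in metaphyseal and arterial ECs.

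In metaphyseal, arterial and proliferating ECs Stab2 and Mrc1 were lower in Dach1OE. By whole profile, 8.47% of metaphyseal ECs in Control and 4.12% in Dach1OE were nearest to sinusoidal ECs. These shares were 6.98% and 0.632% for arterial and 15.0% and 2.96% for proliferating ECs. The part of such cells in the lower levels was not tested. Stab1 was short of the fold in metaphyseal (766 and 644 CPM, -0.25, -0.32 to -0.18) and in Scgb3a1-positive ECs (-0.35, -0.59 to -0.09). In Scgb3a1-positive ECs Stab2 was also short of it (-0.34), while Mrc1 was past it, at 735 and 327 CPM (-1.17, -1.46 to -0.87). In unassigned ECs Stab2 (-0.69) and Mrc1 (-1.10) were both past it. In metaphyseal ECs Stab2 stood at 241 and 135 CPM (-0.84, -0.98 to -0.70) and Mrc1 at 251 and 109 CPM (-1.20, -1.35 to -1.05). In arterial ECs Stab2 was at 145 and 43.4 CPM (-1.74) and Mrc1 at 69.7 and 17.6 CPM (-1.99). In proliferating ECs they were at -1.10 and -1.44, and in type R ECs Stab2 was at -1.41 on 69 and 23 UMIs. Intervals reached 0 for Mrc1 in type R ECs (-0.83, -2.17 to 0.40, on 18 and 9 UMIs) and for Stab2 in lymphatic ECs (-0.16, -0.60 to 0.26). In stromal cells, which should not express these genes, Stab2 was at 27.7 and 13.6 CPM (-1.02) and Mrc1 at 9.73 and 3.84 CPM (-1.34), so the level in cells that should lack these genes moved in the same direction, and the part of such free RNA in the low levels of arterial and type R ECs was not tested.

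Scarb1 differed in opposite directions between subtypes. It was at 257 CPM in Control and 358 CPM in Dach1OE in metaphyseal ECs (0.48, 0.37 to 0.59) and at 574 and 334 CPM in type R ECs (-0.78, -1.05 to -0.51). The type R value is past 1.5-fold and the metaphyseal value is not. The type R gate held different cells in the 2 libraries: by whole profile 93.1% of its Control cells were nearest to type R and 2.12% to arterial ECs, against 58.1% and 39.2% in Dach1OE. The part of this in the type R value was not tested. Arterial ECs had 208 and 210 CPM.

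ECs positive for Scgb3a1 carried Stab1, Stab2, Mrc1 and Fcgr2b in Dach1OE at levels below those of sinusoidal ECs and above those of metaphyseal ECs. Their 2035 cells, 21.7% of ECs in that library against 44 cells in Control, had 838 CPM of Stab2, 772 CPM of Stab1, 327 CPM of Mrc1 and 11.7 CPM of Fcgr2b. Scarf1 was at 221 CPM, the highest of all gates though with an interval overlapping the sinusoidal one, and Scarb1 at 331 CPM was above the sinusoidal 247 CPM. In the 44 Control cells the Stab2 and Mrc1 levels rest on 146 and 101 UMIs. In Dach1OE Stab2 was detected in 51.5% and Mrc1 in 27.8% of cells after thinning. By whole expression profile, without the receptors, 84.8% of these cells (1726) were nearest to the sinusoidal subtype. With subtypes named in that way, the sinusoidal log2 ratios between libraries were -0.06 for Stab1, -0.18 for Stab2, -0.62 for Mrc1 and -1.02 for Fcgr2b, so the last 2 passed 1.5-fold.

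The shares of the EC gates were then held fixed, with the unassigned ECs as a gate of their own. By whole profile, 60.5% of unassigned cells in Control and 37.2% in Dach1OE were nearest to sinusoidal ECs, so their make-up was not fixed. With the Dach1OE level of each subtype weighted by the UMI share of that subtype in Control, Stab1 was at 799 CPM, Stab2 at 692 CPM, Mrc1 at 381 CPM and Fcgr2b at 18.0 CPM. The log2 ratios to Control were then -0.02, -0.23, -0.45 and -0.59 in that order, of which Fcgr2b alone was past 1.5-fold, by a narrow margin. With equal weight of each EC subtype the ratio of Fcgr2b was -0.53, short of the fold, and that of Mrc1 was -0.72, past it. Lyve1 had a log2 ratio of 0.062 at the Control shares. With the weighting turned round, Control levels at the Dach1OE shares had log2 ratios to Control of -0.13 for Stab1, -0.34 for Stab2, -0.23 for Mrc1, -0.90 for Lyve1 and -1.02 for Fcgr2b. For Stab1, Stab2 and Mrc1 the part of the difference that goes with the gate shares thus depended on which library's levels were weighted. For Fcgr2b and Lyve1 the larger part of the log2 ratio went with the shares under both weightings, and no cause was tested. Scarb1 and Scarf1 were at 282 and 178 CPM on the same weights.

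Within each library, ECs could be pooled by the sex-linked transcripts they carried, Xist or Y-linked genes, which separates female from male mice of the pool; cells with neither or both were left out. Over all ECs, Stab2 was at 774 and 497 CPM in cells with Xist and at 863 and 416 CPM in cells with Y-linked UMIs, and Mrc1 at 510 and 232 CPM and at 552 and 204 CPM. Both pools therefore had the lower level in Dach1OE. Within sinusoidal ECs Stab2 was at 1234 and 1203 CPM and at 1171 and 1218 CPM. Among the pairs of pools with opposite signs were those for Scarb1 in type R ECs (log2 ratios -1.41 and 0.20), for Fcgr2b in sinusoidal ECs (-0.60 and 0.19) and for Lyve1 over all ECs (-1.67 and 0.56). Others were Stab1 in type R ECs (-0.32 and 1.39, the second on 16 and 31 UMIs), Mrc1 in type R ECs on at most 10 UMIs, and Scarb1 in arterial ECs (0.31 and -0.37).

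**Figure D4:**
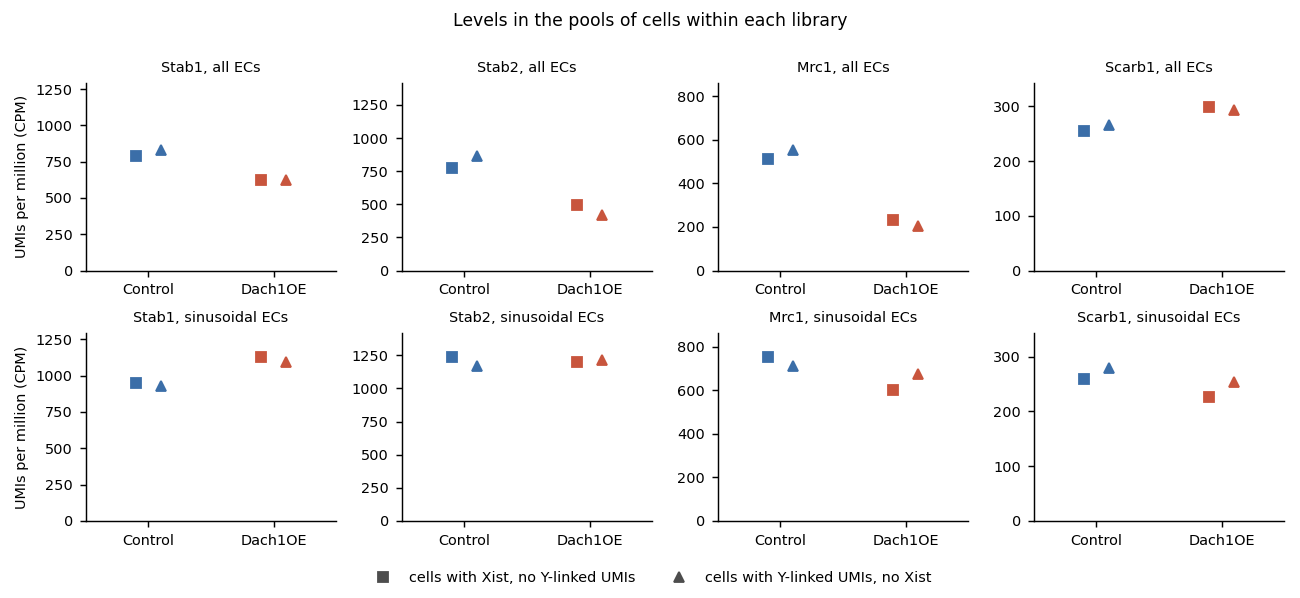
Levels (CPM) of Stab1, Stab2, Mrc1 and Scarb1 in Control and Dach1OE, with all ECs in the upper row and sinusoidal ECs in the lower. Separate markers stand for the Xist pool and the Y-linked pool, and no intervals are drawn. Mrc1 over all ECs is lower in Dach1OE in both pools, and Stab2 in sinusoidal ECs lies between 1171 and 1234 CPM in the 4 pools.

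Within the Dach1OE library, 1544 ECs had a Dach1 UMI after thinning and 7528 had none. Mrc1 was at 174 CPM in the former and 258 CPM in the latter (-0.56, -0.75 to -0.38), and Scarb1 at 380 and 304 CPM (0.32, 0.19 to 0.45). For Stab1 (-0.08) and Stab2 (-0.11) the intervals reached 0. In metaphyseal ECs Scarb1 was at 492 and 339 CPM (0.54), in the same direction as between the libraries. In type R ECs Scarb1 was at 625 and 298 CPM on 15 and 37 UMIs (1.07, 0.09 to 1.97), opposite to the direction between the libraries. In metaphyseal ECs Mrc1 was at 30.2 and 119 CPM on 6 and 141 UMIs. In Scgb3a1-positive ECs, which held 485 of the 1544 cells, Mrc1 was at -0.14 with an interval reaching 0, and in proliferating ECs at 0.46, also reaching 0, so the value over all ECs mixes subtypes. Stab2 in type R ECs was higher in cells with a Dach1 UMI, on 8 and 4 UMIs. In metaphyseal ECs Stab2 was lower in such cells, at 101 and 164 CPM (-0.71, -1.45 to -0.04) on 20 and 195 UMIs. Cells without a Dach1 UMI can still express Dach1 at this depth.

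Macrophages, which also use Mrc1, Stab1 and the Fc receptors, were almost absent. The gate held 7 cells in Control and 11 in Dach1OE, too few for a comparison. Of 10 macrophage markers, 3 or more were detected in 17 and 20 kept cells, and C1qa, C1qb and C1qc gave 84 and 75 UMIs in total. A Ptprc (CD45) UMI was found in 0.363% and 0.342% of ECs and in 726 and 836 of all kept cells. ECs with haematopoietic markers above a set level had been left out before.

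Other clearance receptors moved in both directions over all ECs. Of 24 genes, 19 had at least 20 UMIs, 5 were past 1.5-fold higher and 5 lower in Dach1OE, beside 8.99% and 9.26% of all genes, with a median log2 ratio of 0.22. The fatty acid transporter and scavenger receptor Cd36 was at 840 and 247 CPM (-1.77) and the class A scavenger receptor Msr1 at -1.98 on the log2 scale (408 and 105 UMIs), while the ferritin receptor Scara5 was at 0.701 and 3.08 CPM (2.13). In sinusoidal ECs, 5 of 16 were higher and 1 lower, beside 7.07% and 7.4% of all genes, with Scarf2 at 5.91 and 12.2 CPM (1.05) and the endocytic receptor Lrp1 at 4.27 and 8.59 CPM (1.01). Both are low genes, with 27 and 19 UMIs in Dach1OE.

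Partners of the receptors were examined next. Of the 5 other Fc receptor genes 3 were measured over all ECs, and 1 was past the fold, beside 8.99% of all genes higher and 9.26% lower: Fcgr3 was higher, at 1.27 and 2.67 CPM (40 and 85 UMIs). The signalling chain Fcer1g was at 213 and 230 CPM (0.11) and the IgG recycling receptor Fcgrt at 760 and 637 CPM (-0.26). In sinusoidal ECs Fcer1g was at 0.24 and Fcgrt at 0.02 on the log2 scale, and 0 of the 2 measured were past the fold, beside 7.07% of all genes higher and 7.4% lower. Of 26 genes for stabilin adaptors, clathrin, adaptor complexes, endosomes and lysosomes, 2 were lower over all ECs, the adaptor Dab2 (540 and 293 CPM, -0.88) and the lysosomal protease Ctsb (-0.91), and 0 were higher, beside 9.26% and 8.99% of all genes. The clathrin heavy chain Cltc was at -0.47, the median of the list was -0.17, and in sinusoidal ECs 0 of the 26 were past the fold (beside 7.07% of all genes higher and 7.4% lower), with Gulp1 at -0.37, Ap2a1 at 0.33 and Rab5a at -0.29. Sparc, the ligand of stabilin-1, was at -0.21 over all ECs and -0.09 in sinusoidal ECs.

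For hyaluronan, the ligand of Stab2 and Lyve1, 1 of 10 genes was past the fold over all ECs, beside 8.99% of all genes higher. This was the receptor Cd44, at 9.91 and 17.5 CPM (0.82), with the hyaluronidase Hyal1 at 0.57 and Hmmr, which is also a gene of dividing cells, at 0.56. In sinusoidal ECs 4 of the 6 measured were higher (Hyal1, Cemip, Cd44 and Hmmr), with a list median of 0.85, beside 7.07% of all genes. Cd44 was at 4.42 and 10.4 CPM there (1.24), and the intervals of the other 3, Hyal1 (0.88), Cemip (0.82) and Hmmr (1.01), reached 0. For the cholesterol genes around Scarb1, 2 of 9 were higher over all ECs and 2 lower, beside 8.99% and 9.26% of all genes. Apoa1 was at 0.191 and 4.11 CPM on 6 and 131 UMIs, the apolipoprotein gene Apoe at 835 and 359 CPM (-1.22) and the endothelial lipase Lipg at 460 and 199 CPM (-1.21). In sinusoidal ECs Apoe (-0.56) and Lipg (-0.54) were short of the fold.

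Of 16 transcription factors of endothelial identity, 5 were lower over all ECs in Dach1OE, among them Tfec and Meis2, and 2 higher (Sox7 and Sox17), beside 9.26% and 8.99% of all genes. Tfec was at 21.1 and 8.54 CPM (-1.31), Meis2 at 6.28 and 1.98 CPM (-1.67) and Sox7, a factor of arterial endothelium, at 39.4 and 87.1 CPM. In sinusoidal ECs 0 of 14 were past the fold, beside 7.07% of all genes higher and 7.4% lower, with Gata2 at 0.33, Sox7 at 0.41 and Meis2 at -0.56 on 107 and 12 UMIs. Against other ECs of the same library, Maf, Tfec, Meis2 and Nr2f2 were higher in sinusoidal ECs in both libraries, as were Stab2, Mrc1 and Fcgr2b, and Prox1, Sox7, Sox17 and Klf2 were lower.

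The genes whose levels ran most like each receptor over 28 profiles (gate by library, at least 50 cells) were taken from 15162 genes, as a description; profiles of a library share its free RNA. Stab2 was most like Tfpi (Pearson r 0.99), Ubd (0.98) and Mrc1 (0.97), and Mrc1 most like Susd4, Ubd and Il13ra2 (each 0.97). Stab1 was most like Ushbp1 (0.99), Kank3 (0.99) and Fam167b (0.98), and Scarf1 like Shank3, Cd38 and F11r (each 0.97). Lyve1 was most like Dtx1 (0.86), Ccl21a (0.85) and Prox1 (0.80), of which the last 2 are lymphatic markers used for the gate. Fcgr2b was most like Dok3 (0.91), Pigv (0.90) and Mfsd13a (0.90), and Scarb1 like Mrrf (0.85), Ndufa8 (0.84) and Slc43a3 (0.82). Among the receptors, Stab1 and Stab2 had an r of 0.93 and Stab1 and Scarf1 of 0.92, while Fcgr2b reached at most 0.26 with any other.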

How the data were processed

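Femur and tibia cells of 2 libraries (1 Control, 1 Dach1OE) were profiled by BD Rhapsody whole-transcriptome sequencing. Per the file headers the authors ran the BD Rhapsody WTA Analysis Pipeline 1.11 (GRCm38, GENCODE vM19), with intronic reads counted and refined cell calling. The deposited values are counts per cell and gene: reads, raw UMIs and UMIs adjusted for sequencing errors (RSEC), of which the last were used. How strand was used is not given in the sources used here. The counts are raw; every CPM was computed here from UMIs summed over the cells of a gate. UMIs are captured at transcript ends, so levels were compared within a gene and not between genes.

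Cells with 500 to 6000 genes and under 25% mitochondrial UMIs were gated by marker lists (4 markers for a class, 3 for haematopoietic cells and fibroblasts). EC subtypes needed at least 2 markers and a margin of 0.25 SD over the second best; 19.2% and 16.9% of ECs lay under it. No doublet caller was run. As mixed cells, 374 and 404 ECs were left out because their scaled level of another class's markers exceeded 0.5 of their own class's level. With 1 library per group no test was made. Levels have exact Poisson intervals and ratios exact conditional binomial (Clopper-Pearson) intervals at 95%, for counting error only. A gene counted as past 1.5-fold with at least 20 UMIs in the compared cells. For shares of cells, each cell was thinned to 1000 UMIs, which left out 202 and 285 ECs. A count of 0 allows up to 3 counts.

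The 7 receptors, the 7 gene lists and the markers were chosen with earlier results of these data known, and the details of gate scoring were settled after the data were seen. Named from each list were the 3 genes with the largest absolute log2 ratio over all ECs and the 3 in sinusoidal ECs, and for each receptor the 3 genes with the highest Pearson r of log2(CPM + 1), among genes with at least 200 UMIs. Some genes that this rule takes are not reported here. Other genes that are named were chosen after their values were seen. Alternatives covered raw UMIs, scaling (TMM of edgeR 4.0.16 in R 4.3.3, median of ratios), cell filters, gates, mixed cells, pools and weights. Scripts (Python 3.11.15, numpy 2.4.6, scipy 1.17.1, pandas 2.3.3, matplotlib 3.10.9) were tested on simulated data.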

Additional observations from a re-analysis of the deposited data

Results flagged for a closer look

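The direction of the difference between libraries was opposite in 2 subtypes for 2 receptors, each with a counting interval clear of 0. Stab1 had a log2 ratio of Dach1OE over Control of 0.19 in sinusoidal ECs and -0.41 in proliferating ECs (443 and 334 CPM). The Stab1 ratio was also below 0 in metaphyseal (-0.25) and Scgb3a1-positive ECs (-0.35), and the sinusoidal value was -0.06 when ECs were named by whole profile. Scarb1 had 0.48 in metaphyseal ECs and -0.78 in type R ECs, the latter on 344 and 178 UMIs. With 1 library per group, neither difference between subtypes was tested. For Stab1 in proliferating ECs the pools by sex-linked transcripts were at -0.27 and -0.78, and for Scarb1 in type R ECs they were at -1.41 and 0.20.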

How the results depend on the processing

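No paired analysis was possible because each group has 1 library and no result comes from a test. Of 132 recomputed counts and shares, 120 stayed within 1.5 times the reported value and 12 moved; of 450 recomputed ratios of single receptors, 327 stayed within the reported interval, 120 moved out of it and 3 that were past 1.5-fold reversed. Ratios short of 1.5-fold also changed sign, most often Stab2 in sinusoidal ECs (9 of 16 alternatives, -0.18 to 0.07). The count of receptors lower in Dach1OE over all ECs, 4 as reported, was 1 with equal weight of EC subtypes (Mrc1) and 1 with the Control shares of EC gates (Fcgr2b); the second weighting, the subtraction of stromal levels and the removal of shared cell indices were chosen after seeing the data. The count lower in sinusoidal ECs, 0 as reported, was 2 when subtypes were named by whole profile (Mrc1 and Fcgr2b) and 1 in cells with Xist (Fcgr2b). The shares of all genes past 1.5-fold moved with the minimum of UMIs. Without a minimum they were 16.7% higher and 22.1% lower over all ECs, 15.2% and 31.9% in sinusoidal ECs, and 16.2% higher in sinusoidal than other ECs of Control. With 100 UMIs they were 5.46% lower over all ECs, and 3.32% higher and 2.30% lower in sinusoidal ECs. The Lyve1 ratio over all ECs, -1.10 as reported, reversed to 0.56 in cells with Y-linked UMIs, 0.32 with equal weight of EC subtypes and 0.062 with the Control shares of EC gates; the cause was not tested. TMM scaling moved log2 ratios by 0.01 over all ECs and 0.07 in sinusoidal ECs. With stromal levels subtracted, Stab2 and Mrc1 over all ECs were at -0.83 and -1.24. The planned comparison of macrophages with sinusoidal ECs was not run, since the gate held 7 and 11 cells.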
